A study of Mus musculus with 12 samples.

Results

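The transcripts of 10 genes of fatty acid metabolism that lie downstream of AMPK were measured in the ARC (hypothalamic arcuate nucleus): Acaca, Acacb, Fasn, Scd2, Srebf1, Mlycd, Cpt1a, Cpt1c, Cpt2 and Acadm. The genes were chosen by symbol, without use of their values, from the 38283 genes of the deposited table, and each of the 10 symbols was found and passed the filter on low values. None differed between genotypes beyond the scatter of the mice. Fasn came nearest: WT mice averaged 36.3 ± 9.89 FPKM (SD, n = 5), and Homo mice 27.3 ± 4.38 FPKM (SD, n = 7). FPKM divides the fragments on a gene by transcript length and by how many fragments of that library mapped, so levels of different genes can be set side by side.

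The study asked what lasting activation of AMPK does to energy balance, and it used knock-in mice that carry the R299Q mutation in Prkag2, the gene of the γ2 regulatory subunit of AMPK. ARC tissue was cut by laser from 14 µm frozen brain sections of freely fed C57BL/6 males aged 8 weeks, and RNA was sequenced from 5 wild-type mice (WT) and 7 homozygous R299Q γ2 mice (Homo), with 1 library per mouse. The allele is a knock-in that every cell carries, so the genotypes do not differ in the ARC alone. In tissue of mixed cells, fewer cells of a type and less RNA per cell cannot be told apart.

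AMPK is a kinase that responds to a fall in cellular energy. It phosphorylates and inhibits both acetyl-CoA carboxylases, the enzymes that make malonyl-CoA. Malonyl-CoA is the building block of fatty acid synthesis and an inhibitor of carnitine palmitoyltransferase 1, which controls the entry of long-chain fatty acids into mitochondria, and in the hypothalamus it is known as a signal in the control of feeding. AMPK also restrains SREBP-1c, the transcription factor that drives genes of fatty acid synthesis. The direct action of the kinase on its substrates is on protein, which RNA libraries do not measure.

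The site through which AMPK acts is shared by the products of Acaca and Acacb, and its coding sequence is shown because it is where this pathway touches the genes measured here. Below, 15 codons of each transcript are read 5′ to 3′, with the codon of the phosphorylated serine in capitals.
Acaca: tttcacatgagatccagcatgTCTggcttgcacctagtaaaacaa
Acacb: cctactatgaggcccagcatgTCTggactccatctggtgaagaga
The Acaca stretch belongs to transcript Acaca-201 and lies at chr11:84195677-84214191 on the plus strand of GRCm38, across an exon junction. Its serine is residue 79 of 2345. The Acacb stretch belongs to Acacb-201, at chr5:114166130-114184083 on the plus strand and also across an exon junction, and its serine is residue 212 of 2448. The windows have 11 of 15 residues and 29 of 45 bases in common, whereas the next best match to the Acaca window in the Acacb protein had 5 identical residues. The Acacb site was found by that match.

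The libraries differed in depth, which bears on the genes with low values. WT 1, WT 2 and Homo 1 to 5 listed between 15742 and 16467 genes above 0, against 18141 to 18635 in WT 3, WT 4, WT 5, Homo 6 and Homo 7. These sets of 7 and 5 libraries were separated at the widest gap in that number. The labels name no batch, although the sample titles use another word order for Homo 6 and Homo 7 than for the first 5. Genotype differences are therefore also given within each set. One fragment on 1 kb was worth between 0.0842 and 0.119 FPKM in the 5 libraries. It was worth between 0.187 and 0.325 FPKM in 6 of the other 7. In Homo 2 the step read 0.535 FPKM and was ill defined, with 2.55% of the genes examined in it. Homo 3 (2.96%) and WT 2 (3.01%) had little more, so their values are rough too. All 12 ARC markers, among them Agrp, Npy and Pomc, were above 0 in every library, at a summed 2072 to 6717 FPKM in WT and 4837 to 6864 FPKM in Homo, with WT 3 the lowest. Of the 12, 10 had a higher mean in Homo, and the median log2 fold change of the 12 was 0.42. An unadjusted limma p under 0.05 was reached by 3 of the 10, where 3.05% of all genes tested passed in that direction. None had an adjusted p under 0.05. The direction of the list as a whole did not hold in the set of 7 libraries, with 5 markers higher and 7 lower (median -0.29). In the set of 5 libraries 11 were higher and 1 lower (median 0.71). The 3 markers with an unadjusted p under 0.05, Agrp, Npy and Slc6a3, were higher in Homo in both sets. Their log2 fold changes were 0.31, 0.22 and 1.05 in the set of 7 and 0.29, 0.65 and 0.82 in the set of 5. Markers of neighbouring hypothalamic nuclei, Avp and Oxt foremost, summed to between 10.04 and 1030 FPKM in WT and between 16.2 and 579 FPKM in Homo. Summed adipocyte markers lay between 0 and 0.279 FPKM in WT and between 0 and 0.896 FPKM in Homo, with Adipoq, Cidec and Lep, 3 of the 5, at 0 throughout. Microglial markers summed to 64.9 to 110 FPKM in WT and 96.2 to 164 FPKM in Homo, overlapping ranges. All 8 had a higher mean in Homo, with a median log2 fold change of 0.42. Of these, 3, C1qa and Aif1 included, had an unadjusted limma p under 0.05, where 3.05% of all genes tested passed in that direction. The smallest adjusted limma p was 0.763. All 8 were also higher in the set of 7 libraries (median 0.38) and in the set of 5 (median 0.65). Oligodendrocytes, cells with high lipid synthesis, had summed markers of 91.2 to 563 FPKM in WT and 156 to 417 FPKM in Homo, and 9 of the 9 markers tested had a higher mean in Homo, none with an unadjusted p under 0.05. Of the 6 tanycyte and ependymal markers tested, 5 had a lower mean in Homo. The part of these cells, and of how the tissue was cut, in the values of the 10 genes was not tested.

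Genotypes were compared on log2(FPKM + 1), a scale that understates the change of low genes, with limma over the 14017 genes that averaged 1 FPKM or more. Each gene also had a two-sided exact permutation test over the 792 ways to assign the genotypes to the 12 mice, in which the smallest possible p is 0.0013. None of the 10 genes reached an adjusted p under 0.05, where 1 gene of all those tested did (0.00713%). None reached an unadjusted p under 0.05 either, against 5.55% of all genes tested, made up of 3.05% higher and 2.5% lower in Homo. The ranges of WT and Homo overlapped for all 10, and did not overlap for 0.221% of all genes tested. By mean log2 value 3 of the 10 were higher and 7 lower in Homo, with a median log2 fold change of -0.12 beside -0.0062 over all genes tested. How far mice of one genotype lay apart varied widely from gene to gene, as the plot of FPKM per mouse shows.

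**Figure D1:**
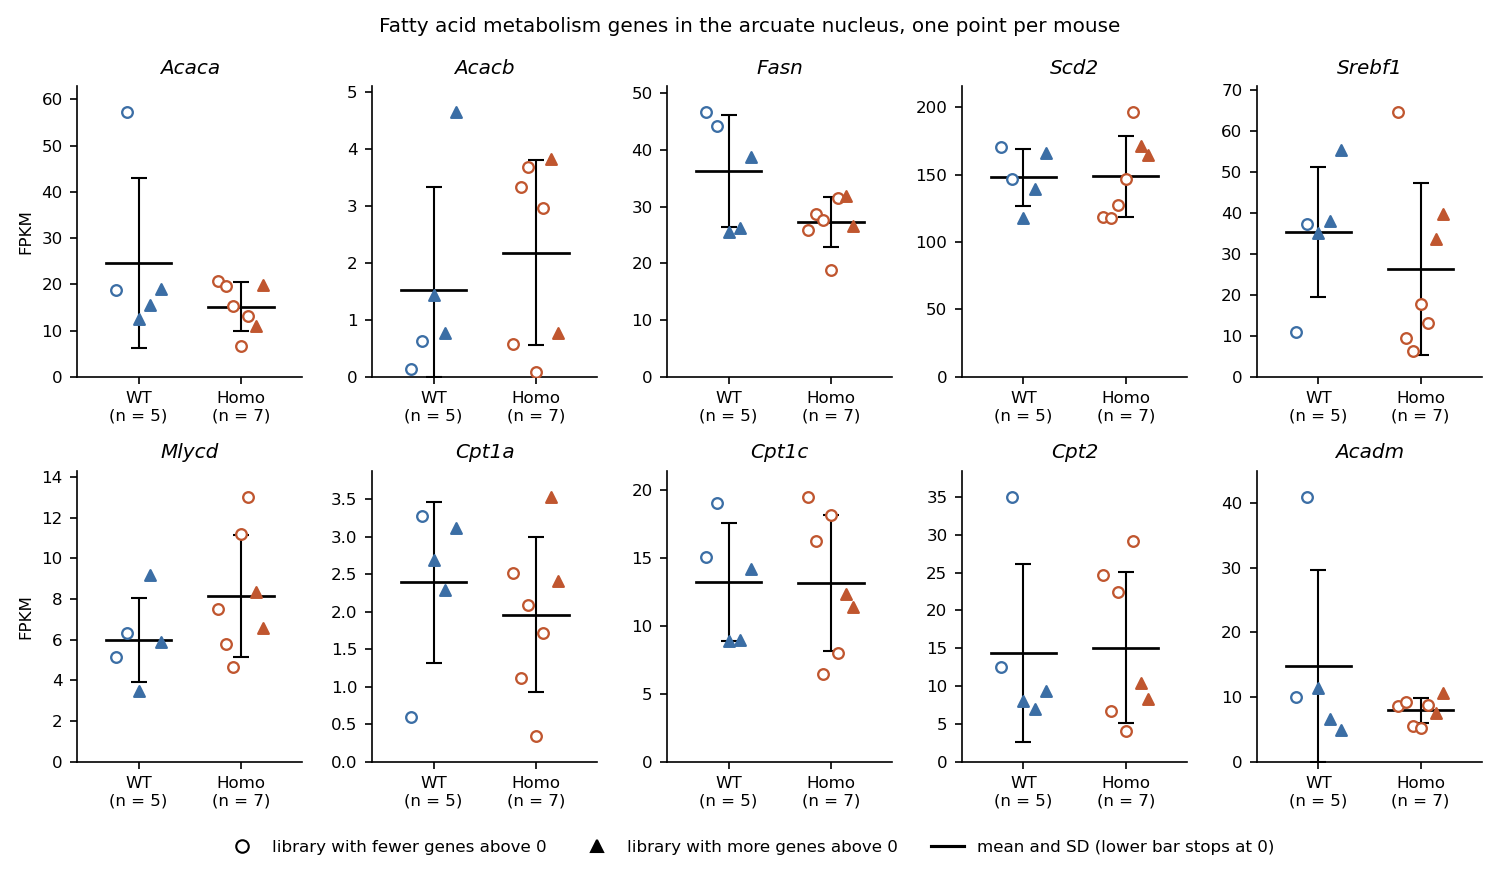
FPKM of the 10 genes (linear axes from 0, 1 panel per gene) in WT and Homo, with 1 point per mouse and the mean and SD; open circles are the 7 libraries with fewer genes above 0 and triangles the 5 with more. The genotypes overlap in each panel, Scd2 sits near 148 FPKM in both, and WT 2 stands at the top of the WT libraries for Acaca (57.2 FPKM), Cpt2 (34.96 FPKM) and Acadm (40.9 FPKM).

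Scd2 was the most abundant of the 10, at a mean of 148 FPKM over all libraries, and it exceeded Fasn in 12 of 12 libraries. Fasn followed at 31.0 FPKM and Srebf1 at 30.1 FPKM, and these neighbours did not differ beyond their spread, since Fasn was the higher in 6 of 12 libraries. Acaca at 19.1, Cpt2 at 14.8, Cpt1c at 13.2, Acadm at 10.8 and Mlycd at 7.25 FPKM formed the middle of the order. Within it Cpt2 exceeded Cpt1c in only 4 of 12 libraries although its mean was higher, Acaca exceeded Cpt2 in 9, Cpt1c exceeded Acadm in 9 and Acadm exceeded Mlycd in 7. Cpt1a at 2.14 FPKM and Acacb at 1.91 FPKM were the lowest. Every library had Mlycd above Cpt1a, while Cpt1a lay above Acacb in 7 of 12.

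Acaca (ENSMUSG00000020532, chromosome 11 of GRCm38 from 84129672 to 84401651) encodes acetyl-CoA carboxylase 1, the cytosolic enzyme whose malonyl-CoA feeds fatty acid synthesis. WT 1 to WT 5 read 18.9, 57.2, 12.5, 15.5 and 18.9 FPKM, and Homo ran from 6.62 to 20.7 with a median of 15.4 FPKM. Only WT 2 lay above the Homo range, and Homo 4 held the lowest value. The means were 24.6 ± 18.4 FPKM for WT and 15.2 ± 5.28 FPKM for Homo, and the log2 fold change was -0.52 (standard error, SE, 0.35, 95% interval -1.28 to 0.24, limma adjusted p = 0.915, exact permutation p = 0.25). Without WT 2 it was -0.17. In the set of 7 libraries it was -1.17 (95% interval -2.38 to 0.040) and in the other 5 it was -0.053 (95% interval -0.84 to 0.73).

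Acacb (ENSMUSG00000042010, chromosome 5 from 114146535 to 114250761) encodes acetyl-CoA carboxylase 2, the form at the outer mitochondrial membrane, placed next to carnitine palmitoyltransferase 1. Its levels were low and scattered: WT 1 to WT 5 read 0.134, 0.632, 1.43, 0.772 and 4.64 FPKM, and Homo ran from 0.0917 to 3.83 with a median of 2.96 FPKM. The lowest values, in WT 1 and Homo 4, came to about 5.84 and 2.43 fragments by the estimated step, so its level there was low but imprecise. The other libraries held about 21.5 (Homo 1) to 391 (Homo 6) fragments and still ranged from 0.572 to 4.64 FPKM. The means of 1.52 ± 1.81 FPKM for WT and 2.18 ± 1.63 FPKM for Homo gave a log2 fold change of 0.36 (SE 0.48, 95% interval -0.67 to 1.39, limma adjusted p = 0.942, exact permutation p = 0.492). The difference was 0.98 in the 7 libraries and 0.015 in the 5. Without WT 1 it was 0.13, and without WT 5 it was 0.71.

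Fasn (ENSMUSG00000025153, chromosome 11 from 120805846 to 120824547, minus strand) encodes fatty acid synthase, which builds palmitate from malonyl-CoA. In order from WT 1 to WT 5 the values were 46.6, 44.1, 25.5, 26.3 and 38.8 FPKM, and Homo ran from 18.8 to 31.8 with a median of 27.7 FPKM. Every Homo library lay below the WT median, but WT 3 and WT 4 lay inside the Homo range. The log2 fold change of -0.37 (SE 0.20, 95% interval -0.80 to 0.060) had an unadjusted limma p of 0.0863, an adjusted p of 0.905 and an exact permutation p of 0.0821. Permuting genotype only within the library sets, in 210 arrangements with a smallest possible p of 0.0048, gave an exact permutation p of 0.0524. Within the set of 7 libraries Fasn differed by -0.77 (95% interval -1.37 to -0.17, limma adjusted p = 0.815). In the other 5 it was -0.027 (95% interval -0.68 to 0.63). The 2 values were not shown to differ (limma p for the difference between the sets, 0.0753 unadjusted and 0.876 adjusted).

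Scd2 (ENSMUSG00000025203, chromosome 19 from 44293674 to 44306864) encodes the stearoyl-CoA desaturase that predominates in mouse brain and makes monounsaturated fatty acids. It was the steadiest of the 10: WT 1 to WT 5 read 170, 147, 118, 140 and 166 FPKM, and Homo ran from 118 to 196 with a median of 146 FPKM. The genotype ranges coincided at their lower ends, and Homo 5 alone lay above the WT maximum. With means of 148 ± 21.3 FPKM for WT and 149 ± 29.9 FPKM for Homo, the log2 fold change was -0.0044 (SE 0.17, limma adjusted p = 0.997, exact permutation p = 0.972). The 95% interval ran from 0.775-fold to 1.28-fold of WT, which is the range of change these libraries leave for this gene on the log2(FPKM + 1) scale. A microRNA gene, Mir5114, lies within an exon of Scd2, and how fragments on it were shared out is not given in the sources used here.

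Srebf1 (ENSMUSG00000020538, chromosome 11 from 60199089 to 60222581, minus strand) encodes SREBP-1, whose SREBP-1c form drives Fasn, Acaca and desaturase genes. WT 1 to WT 5 read 11.0, 37.3, 35.1, 37.9 and 55.3 FPKM, and Homo ran from 6.21 to 64.5 with a median of 17.7 FPKM. WT 1 and Homo 2 to Homo 5 lay between 6.21 and 17.7 FPKM, while Homo 1, of the same library set, held the highest value of all. The means were 35.3 ± 15.8 FPKM for WT and 26.3 ± 20.9 FPKM for Homo, and the log2 fold change was -0.63 (SE 0.53, 95% interval -1.77 to 0.52, limma adjusted p = 0.919, exact permutation p = 0.337). Between the library sets, with genotype in the model, Srebf1 differed by 1.09 on the log2 scale, the 5 libraries with more genes having the higher mean. This did not pass the test after adjustment (limma unadjusted p = 0.0439, adjusted p = 0.581), and WT 2 and Homo 1 of the other set lay at 37.3 and 64.5 FPKM. Once the set was a term of the model, the genotype difference of Srebf1 was -0.28. Exons of Srebf1 overlap those of Rai1 on the opposite strand, and without strand the reads of the pair cannot be told apart.

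Mlycd (ENSMUSG00000074064, chromosome 8 from 119394878 to 119411102) encodes malonyl-CoA decarboxylase, which removes malonyl-CoA and so works against the carboxylases. The WT mice, 1 to 5 in order, read 5.13, 6.30, 3.47, 9.16 and 5.89 FPKM, and Homo ran from 4.65 to 13.01 with a median of 7.52 FPKM. Homo 4 and Homo 5 exceeded every WT library, and of the 7 Homo libraries 5 exceeded the median of WT. The means of 5.99 ± 2.08 FPKM for WT and 8.16 ± 3.00 FPKM for Homo gave a log2 fold change of 0.38 (SE 0.27, 95% interval -0.20 to 0.95, limma adjusted p = 0.915, exact permutation p = 0.183). It was nearly the same in both library sets, at 0.41 and 0.31.

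Cpt1a (ENSMUSG00000024900, chromosome 19 from 3322334 to 3385733) encodes the liver-type carnitine palmitoyltransferase 1, the malonyl-CoA-sensitive gate to mitochondrial oxidation. Across WT 1 to WT 5 it measured 0.596, 3.28, 2.70, 2.28 and 3.11 FPKM, and Homo ran from 0.339 to 3.53 with a median of 2.09 FPKM. WT 1 and Homo 4, the lowest of their genotypes, held about 12.5 and 4.32 fragments by the estimated step. Means of 2.39 ± 1.08 FPKM for WT and 1.96 ± 1.03 FPKM for Homo gave a log2 fold change of -0.21 (SE 0.34, 95% interval -0.93 to 0.52, limma adjusted p = 0.961, exact permutation p = 0.553). The difference widened to -0.46 without WT 1 and shrank to -0.031 without Homo 4.

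Cpt1c (ENSMUSG00000007783, chromosome 7 from 44959372 to 44974851, minus strand) encodes the neuronal member of the family, which binds malonyl-CoA but has little acyltransferase activity. From WT 1 to WT 5 the readings were 15.1, 19.0, 8.88, 8.94 and 14.2 FPKM, and Homo ran from 6.42 to 19.5 with a median of 12.4 FPKM. The genotypes covered almost the same range, with means of 13.2 ± 4.33 FPKM for WT and 13.1 ± 5.00 FPKM for Homo. The log2 fold change was -0.039 (SE 0.29, 95% interval -0.66 to 0.58, limma adjusted p = 0.993, exact permutation p = 0.90). An antisense gene, 6530437J22Rik, overlaps an exon of Cpt1c, and the table alone does not separate the pair.

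Cpt2 (ENSMUSG00000028607, chromosome 4 from 107903981 to 107923610, minus strand) encodes the inner-membrane enzyme that turns acylcarnitine back into acyl-CoA. WT 1 to WT 5 read 12.5, 34.96, 7.97, 6.90 and 9.34 FPKM, and Homo ran from 3.99 to 29.1 with a median of 10.3 FPKM. WT 2 with Homo 1, Homo 3 and Homo 5, all libraries with fewer genes above 0, lay between 22.5 and 34.96 FPKM, and the other 8 between 3.99 and 12.5 FPKM. Means of 14.3 ± 11.7 FPKM for WT and 15.1 ± 10.04 FPKM for Homo gave a log2 fold change of 0.043 (SE 0.49, 95% interval -0.997 to 1.08, limma adjusted p = 0.995, exact permutation p = 0.942). Adding the library set to the model gave -0.23, and leaving out WT 2 gave 0.41.

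Acadm (ENSMUSG00000062908, chromosome 3 from 153922357 to 153944632, minus strand) encodes medium-chain acyl-CoA dehydrogenase, which takes the first step of β-oxidation for medium chains. The values of WT 1 to WT 5 were 9.999, 40.9, 11.4, 6.53 and 4.88 FPKM, and Homo ran from 5.18 to 10.6 with a median of 8.57 FPKM. The Homo libraries were close together, and WT 2 alone widened the WT group, to 14.7 ± 14.9 FPKM against 7.92 ± 1.97 FPKM in Homo. The log2 fold change was -0.47 (SE 0.39, 95% interval -1.30 to 0.37, limma adjusted p = 0.919, exact permutation p = 0.343), and without WT 2 it was -0.017. It was -1.37 in the set of 7 (limma adjusted p = 0.815) and 0.28 in the other 5. The sets differed by 1.65 in that genotype difference (limma unadjusted p = 0.0353, adjusted p = 0.876).

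Within the 7 libraries with fewer genes above 0, Fasn and Acadm were thus the 2 of 10 genes with an unadjusted p under 0.05. Both were lower in Homo, and 5.98% of all genes tested passed there, 629 lower and 209 higher. Within the 5 libraries with more genes the count was 0 of 10 beside 5.07%, and with the set in the model it was 0 of 10 beside 4.78%. The smaller set held 2 Homo libraries and the larger 2 WT libraries, so the comparison within each set rests on a pair on one side. In that WT pair, WT 1 and WT 2, Fasn read 46.6 and 44.1 FPKM and Acadm 9.999 and 40.9 FPKM. The median log2 fold change of all genes tested was itself -0.081 in the set of 7 and 0.13 in the set of 5, and that of the 10 genes was -0.38 and 0.13. Relative to the medians of all genes tested, Acaca, Fasn, Srebf1 and Cpt1a stood at the lower side in both sets, as the plot of differences by library set shows. In the set of 5 their limma intervals all included 0.13. In the set of 7 those of Acaca, Srebf1 and Cpt1a included -0.081, and that of Fasn (-1.37 to -0.17) did not. Where an interval included the median, the side on which the gene lies was not resolved.

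**Figure D2:**
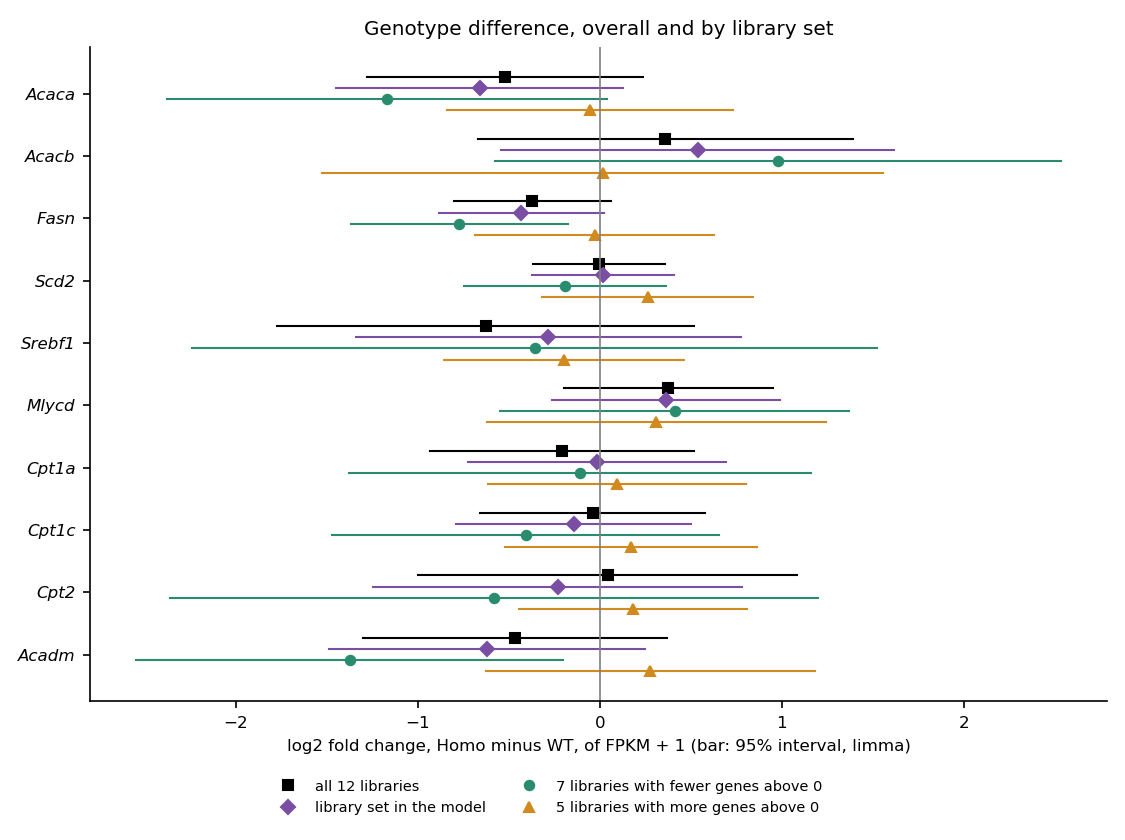
Log2 fold change, Homo minus WT, of FPKM + 1 for the 10 genes (linear axis), with 95% limma intervals, over all 12 libraries, with the library set in the model, and within the sets of 7 and 5 libraries. All intervals include 0 except those of Fasn (-0.77) and Acadm (-1.37) in the set of 7 libraries.

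The 10 genes did not share one scatter. The pooled SD within genotypes on the log2 scale was 0.26 for Scd2 and 0.32 for Fasn, lower than for most genes tested (percentiles 4.44 and 12.9), and it was 1.04 for Srebf1, 0.95 for Cpt2 and 0.89 for Acacb (percentiles 88.0, 85.5 and 83.2). The median over all genes tested was 0.52. Acaca at 0.67 and Acadm at 0.74 lay above that median, and Mlycd at 0.45 lay below it. From the lowest to the highest library, Scd2 differed by 1.67-fold, Fasn by 2.48-fold and Acacb by 50.6-fold.

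Single mice accounted for part of this scatter. WT 2 lay above the WT mean in 9 of 10 genes, Acacb being the exception, and by 1.40 on the log2 scale for Acaca, 1.48 for Cpt2 and 1.80 for Acadm. Its median deviation over the 10 genes was 0.37, against 0.030 over all genes tested. Homo 4 lay above the Homo mean in 3 of 10 genes, with a median deviation of -0.50 against 0.0087 over all genes tested. Among its higher genes were Mlycd and Cpt1c, and its Acaca, Acacb, Fasn, Cpt1a, Cpt2 and Acadm were the lowest of the Homo libraries.

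**Figure D3:**
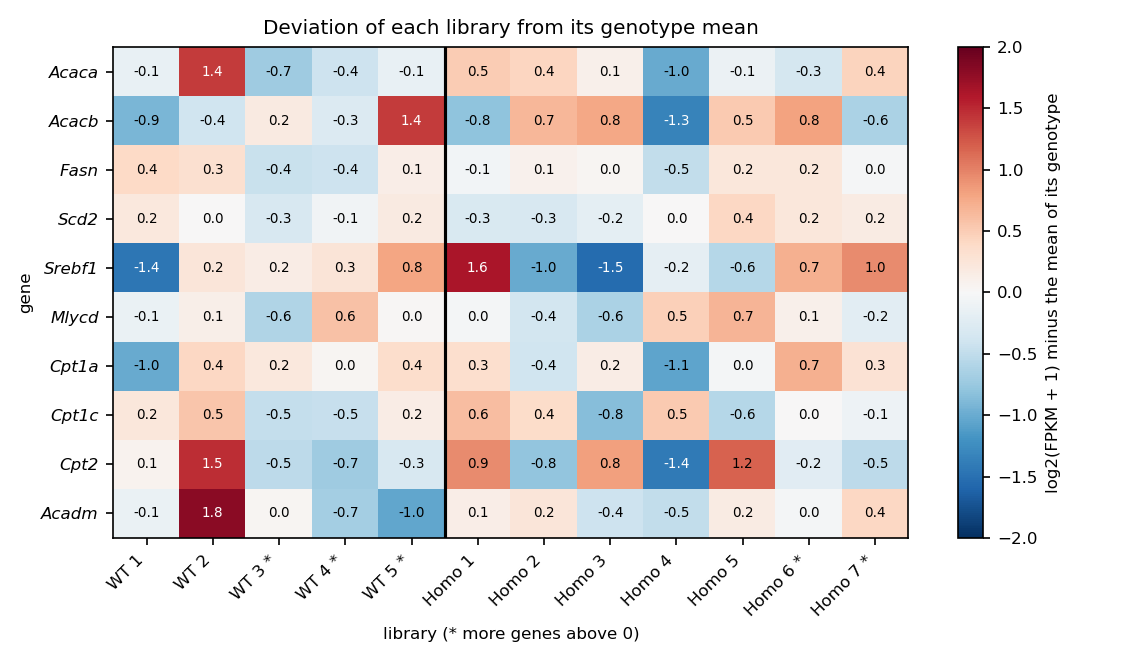
Deviation of each library (columns, WT left of the black line and Homo right) from the mean of its genotype in log2(FPKM + 1), for the 10 genes (rows); an asterisk marks the 5 libraries with more genes above 0. WT 2 is high in Acaca, Cpt2 and Acadm, Homo 4 is low in Acaca, Acacb, Cpt1a and Cpt2, and the rows of Scd2 and Fasn are pale.

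Ratios within a library set the opposing or paired enzymes beside each other and do not depend on the scaling of that library. They are descriptions, given with no test. Acaca exceeded Acacb in every library, by a median of 20.1-fold in WT (range 4.08 to 141) and 5.90-fold in Homo (range 2.88 to 72.1). Both extremes, WT 1 and Homo 4, were the libraries with the lowest Acacb. Cpt1c exceeded Cpt1a in every library, by a median of 4.56-fold in WT (range 3.30 to 25.3) and 4.72-fold in Homo (range 3.07 to 53.7), so the brain form stood above the liver form throughout. Acaca over Mlycd, the maker of malonyl-CoA over the enzyme that removes it, had a median of 3.59 in WT (range 1.69 to 9.07) and 2.75 in Homo (range 0.589 to 3.41). Homo 4 was the library in which Mlycd exceeded Acaca.

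**Figure D4:**
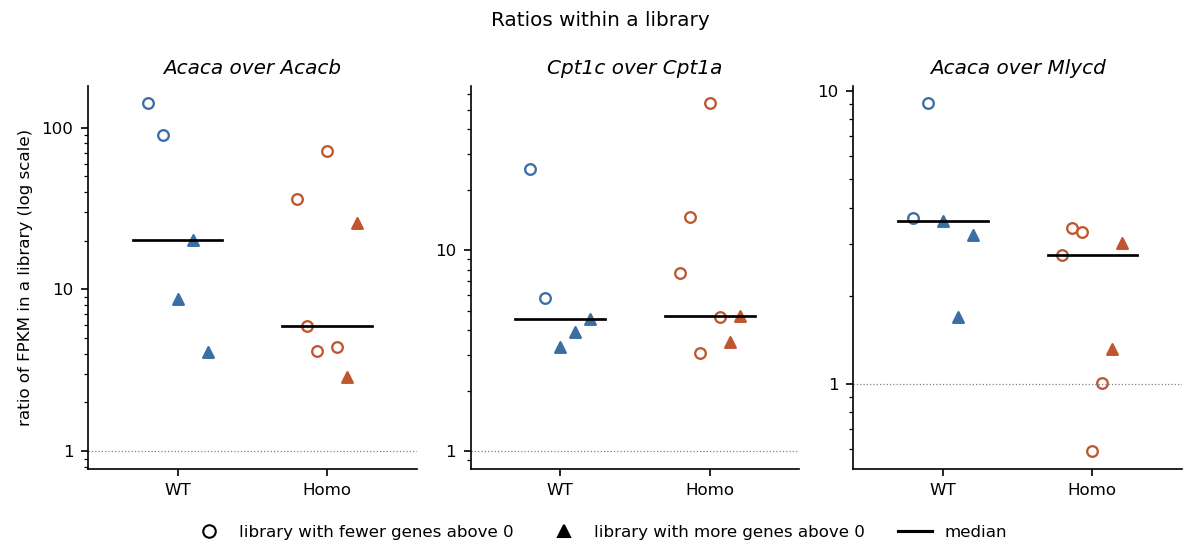
Ratio of FPKM within each library (log axes) for Acaca over Acacb, Cpt1c over Cpt1a and Acaca over Mlycd, with 1 point per mouse and the median as a line; the dotted line is a ratio of 1. The genotypes overlap in each panel, and of all points 1 lies below 1, that of Homo 4 for Acaca over Mlycd (0.589).

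The surrounding pathway was described through 7 lists with 104 genes, of which 93 were tested, 83 of them besides the 10. By mean log2 value 46 of the 83 were higher and 37 lower in Homo, with a median log2 fold change of 0.050. An unadjusted p under 0.05 was reached by 1 higher and 2 lower genes, beside 3.05% and 2.5% of all genes tested, and the adjusted p of each of the 83 was above 0.05 (the smallest was 0.856). The 3 were Thrsp, Acox3 and Usf2. Of the genes listed, Cpt1b, Elovl7, Cd36, Acox2, Ehhadh, Acaa1b, Mlxip, Mlxipl, Nr1h3, Ppara and Pparg did not reach a mean FPKM of 1. They were not tested with limma, among them the muscle form of carnitine palmitoyltransferase 1 and the receptor PPARα. Ppara averaged 0.576 ± 0.438 FPKM in WT and 0.0343 ± 0.0793 FPKM in Homo (exact permutation p = 0.0051, not adjusted for the number of genes). These values lie near the floor, and 5 Homo but 2 WT libraries are among those with fewer genes above 0. The part of depth in this difference was not tested.

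Of the 12 genes for cytosolic acetyl-CoA supply and fatty acid synthesis, 4 had a higher and 8 a lower mean in Homo, with a median log2 fold change of -0.18. Thrsp, which encodes the lipogenic regulator Spot 14, went the other way to Fasn and Acaca. It measured 8.80 ± 2.14 FPKM for WT and 13.4 ± 3.81 FPKM for Homo, a log2 fold change of 0.54 (SE 0.23, unadjusted limma p = 0.0324, adjusted p = 0.899, exact permutation p = 0.0341). Acot7, the brain acyl-CoA thioesterase, was the most abundant of the list besides the 10, at 161 ± 44.8 FPKM for WT and 190 ± 11.0 FPKM for Homo (log2 fold change 0.30, standard error 0.19, limma adjusted p = 0.915).

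The 16 genes of desaturation and elongation were split evenly, 8 higher and 8 lower, with a median of 0.041, close to the value of Scd2. Tecr, the reductase of the elongation cycle, measured 620 ± 107 FPKM for WT and 589 ± 157 FPKM for Homo (log2 fold change -0.10), and Fads1, the Δ5 desaturase, 31.1 ± 5.55 and 36.7 ± 5.34 FPKM (0.23). Among the 12 genes of fatty acid activation and binding, 10 had a higher and 2 a lower mean in Homo, with a median of 0.14 and no gene under an unadjusted p of 0.05. Dbi, the acyl-CoA binding protein, was at 868 ± 162 FPKM for WT and 834 ± 209 FPKM for Homo (log2 fold change -0.080), and Fabp3, a fatty acid binding protein, at 24.02 ± 10.9 and 29.4 ± 6.17 FPKM (0.37).

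In the carnitine shuttle, 8 genes including Cpt1a, Cpt1c, Cpt2 and Mlycd were tested, 5 higher and 3 lower, with a median of 0.031. Crat, carnitine acetyltransferase, measured 11.6 ± 7.86 FPKM for WT and 7.85 ± 6.48 FPKM for Homo (log2 fold change -0.52, standard error 0.46, limma adjusted p = 0.919). Mitochondrial β-oxidation, the list of Acadm, had 11 of 18 genes higher and 7 lower, with a median of 0.090. Etfb, a subunit of the flavoprotein that takes electrons from acyl-CoA dehydrogenases, was at 76.4 ± 28.2 FPKM for WT and 104 ± 25.5 FPKM for Homo (log2 fold change 0.47, standard error 0.25, limma adjusted p = 0.903). No gene of either list had an unadjusted p under 0.05.

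Peroxisomal β-oxidation had 4 genes higher and 6 lower of 10 tested, with a median of -0.057. Acox3, an acyl-CoA oxidase, measured 6.38 ± 2.28 FPKM for WT and 3.27 ± 1.72 FPKM for Homo, a log2 fold change of -0.82 (SE 0.32, unadjusted limma p = 0.0223, adjusted p = 0.856, exact permutation p = 0.0354). Abcd3, a peroxisomal transporter, was at 73.8 ± 22.8 and 79.3 ± 30.0 FPKM (0.060). Of the 17 regulators tested, 7 were higher and 10 lower, with a median of -0.11. Usf2, a transcription factor with sites at lipogenic promoters, measured 33.3 ± 24.8 FPKM for WT and 17.7 ± 3.77 FPKM for Homo, a log2 fold change of -0.67 (SE 0.31, unadjusted limma p = 0.046, adjusted p = 0.899, exact permutation p = 0.029). Scap, which escorts SREBPs out of the endoplasmic reticulum, was at 31.8 ± 11.3 and 28.8 ± 10.4 FPKM (-0.15).

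**Figure D5:**
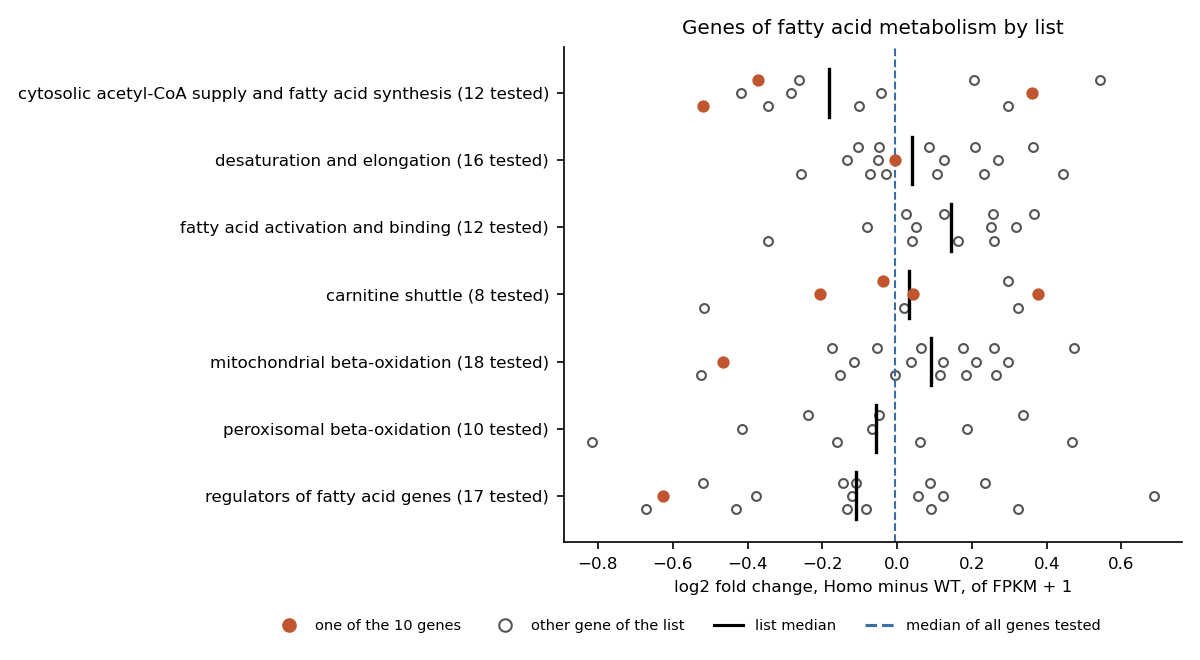
Log2 fold change, Homo minus WT, of FPKM + 1 (linear axis) for the 93 genes tested in 7 lists of fatty acid metabolism; filled points are the 10 genes described here, open points the other genes, short black lines the list medians and the dashed line the median of all genes tested. List medians lie between -0.18 and 0.14, and both filled and open points fall on either side of 0.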

How the data were processed

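RNA from laser-captured ARC was, per the labels, amplified with the NuGEN RNAseq v2 system, sheared and made into bar-coded libraries. The authors deposited 1 table of FPKM values. The submitters' processing notes name TopHat2 2.0.8, Cufflinks 2.2.1 and GRCm38. The annotation, strand setting and any scaling beyond FPKM are not given in the sources used here. All 12 columns were matched to mice by genotype and number, and 0 were left over. The table holds no fragment counts, so depth was read from the steps between low values, and it is approximate.

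From the deposited FPKM, log2(FPKM + 1) was tested for the 14017 genes averaging 1 FPKM or more (limma 3.58.1 in R 4.3.3, eBayes with trend and robust variances, Benjamini-Hochberg over all genes tested, threshold 0.05), with genotype as the only term. Exact two-sided permutation tests used the mean of log2(FPKM + 1). Whether the mice of a genotype were littermates is not stated, and p-values measure the spread between these mice. The model was also run on simulated data with known changes. Those data had independent normal scatter, with no library sets and no outlying libraries, and no result given here rests on them. Positions are from GENCODE mouse release M21 (GRCm38), and coding sequences were read from the transcript sequences of that release. Besides the 10 genes, the text names from each pathway list the gene with the highest mean FPKM and the one with the smallest unadjusted p. Where a symbol had more than 1 identifier, that with the highest mean was used. Marker genes, and genes outside this rule, were named after their values were seen. The 10 genes, the lists and the tests were chosen with earlier results of these data known. Alternatives changed the pseudocount, filter, scaling, library set, replicate block and libraries included. Plots were drawn with matplotlib 3.10.9.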

Additional observations from a re-analysis of the deposited data

Results flagged for a closer look

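Each of the 10 genes was examined in WT and in Homo for a library far from the rest of its genotype, by Dixon's ratio of the outermost gap to the range, taken on log2(FPKM + 1). Of 20 groups examined, 4 held such a library. The critical ratio is passed in about 1 in 20 groups when values are normal and groups independent. These groups share the same 12 libraries, so no excess over chance can be read from the count. Acaca was highest in WT 2, at 57.16 FPKM, with the nearest WT library at 18.9 FPKM. Fasn was lowest in Homo 4, at 18.8 FPKM, with the nearest Homo library at 25.9 FPKM. Cpt1a and Srebf1 were both lowest in WT 1, at 0.5955 FPKM with the nearest at 2.28 FPKM, and at 10.97 FPKM with the nearest at 35.1 FPKM. WT 1, WT 2 and Homo 4 are all among the 7 libraries with fewer genes above 0. On untransformed FPKM, a scale tried after the data were seen, 4 groups also held such a library, and of the above only Acaca in WT 2 was among them. The others were Cpt2 in WT 2 (34.96 FPKM, nearest 12.5 FPKM), Acadm in WT 2 (40.9 FPKM, nearest 11.4 FPKM) and Acacb in WT 5 (4.64 FPKM, nearest 1.43 FPKM). What sets these libraries apart was not tested.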

How the results depend on the processing

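No alternative brought an adjusted p of the 10 genes under 0.05 (the smallest was 0.726), and of 218 alternative values 192 kept their direction and 26 reversed, all for differences that failed the test. Besides the set of 7 libraries, Fasn had an unadjusted limma p under 0.05 with quantile normalization (-0.38, adjusted p = 0.76), without WT 3 (-0.48, adjusted p = 0.988) and without WT 4 (-0.47, adjusted p = 0.817). Of the 14017 genes tested, 920, 607 and 839 passed in these runs. WT 3 and WT 4 held the lowest Fasn values of WT, so leaving either out widens the difference. Fasn did not pass with any other single library left out, and it shrank to -0.27 without WT 1, -0.29 without WT 2 and -0.29 without Homo 4. Acaca, Acacb, Fasn and Mlycd kept their direction in every alternative run. With the library set in the model, Scd2 went to 0.017 and Cpt2 to -0.23. In the 7 libraries with fewer genes Cpt2 was -0.58. In the 5 libraries with more genes Scd2 was 0.26, Cpt1a 0.094, Cpt1c 0.17 and Acadm 0.28. With upper-quartile scaling Scd2 was 0.0058. With 1 library left out, the log2 fold change of Scd2 ran from -0.084 to 0.049, of Cpt1c from -0.16 to 0.10 and of Cpt2 from -0.15 to 0.41. With the library set as a term and WT 2 left out, an alternative added after the data were seen, Scd2 was 0.034, Cpt1a 0.30 and Srebf1 0.082. The count of genes called, 1 over all libraries, was 6 in the 7 libraries, 19 in the 5, between 1 and 3 with 1 library left out (3 without WT 2 and 2 without Homo 4), and 2 without WT 2 with the set in the model. The cause was not tested. Same-numbered libraries did not deviate together (correlations -0.054 to 0.029), so the numbers were not taken as pairs. A replicate block gave 2 genes called and left Fasn at -0.41 (adjusted p = 0.726). Acacb and Cpt1a could not be fitted at a mean FPKM of at least 5. Depth limits the precision of Acacb and Cpt1a in single libraries, such as Homo 4 with about 2.43 and 4.32 fragments. Fragments of the other genes were not estimated.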
